A study of Mus musculus with 77 samples.

Results

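The transcripts described here are 10 genes of epithelial exit among the 46078 genes of the count table: the adhesion genes Cdh1 and Epcam, the mesenchymal genes Cdh2 and Vim, the transcription factors Snai1, Snai2, Zeb1 and Zeb2, and the epithelial regulators Grhl2 and Ovol1. They were taken by name, each matched to its Ensembl identifier, and were followed over all 7 groups of mouse pancreatic ductal organoids and their single pools of sorted cells. The organoids, three-dimensional cultures of pancreatic duct cells from C57BL/6 mice, were transduced with inducible vectors coding for GFP only, GFP with wild-type Neurogenin3 (WT Ngn3) or GFP with 6S-A Ngn3, a phosphomutant whose serine-proline phosphorylation sites carry alanine. Ngn3 is the basic-helix-loop-helix factor that commits pancreatic duct progenitors to the endocrine lineage.

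At 2 days of induction the groups were GFP only, WT Ngn3 and 6S-A Ngn3, and each held 3 biological replicates. At 8 days they were WT Ngn3, 6S-A Ngn3 and, from the organoids of each, cells that the table's headers call no-color, again with 3 biological replicates per group, and the labels list no GFP-only cells at that time. The cells were at passage 2, except replicate 3 at 8 days, which was at passage 5. Each library was made from a pool of 50 sorted cells. Technical repeats of a replicate were summed, so p-values measure the spread between biological replicates whose separate origin the labels do not describe further. The Ngn3 came from a transgene in every Ngn3 group, and a pool of 50 sorted cells reports a mean over cells: fewer cells expressing a gene and less RNA per cell cannot be told apart.

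Endocrine progenitors leave the duct epithelium as they differentiate, a movement called delamination. Its textbook counterpart is the epithelial-mesenchymal transition (EMT), in which the zinc-finger repressors of the Snail and Zeb families bind E-box letters near epithelial genes such as Cdh1, the cell exchanges E-cadherin for N-cadherin, and vimentin filaments appear. Grainyhead-like and Ovo-like factors hold the epithelial state and oppose Zeb genes. In the pancreas, N-cadherin is also a normal cadherin of islet endocrine cells, and E-cadherin is kept by duct and islet cells alike.

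Members of the Snail and Zeb families recognise the letters CAGGTG, or CACCTG on the opposite strand. The 250 bases before the transcription start were therefore read from RefSeq promoters (GRCm38.p6), where 4 of the 10 genes have an entry. Epcam, which fell with Ngn3, and Snai1 and Zeb2, which rose with 6S-A Ngn3, are shown because their windows hold no annotated exon of their own. They lie at chr17:87635729-87635978 on the plus strand (Epcam), chr2:167537945-167538194 on the plus strand (Snai1) and chr2:45117443-45117692 on the minus strand (Zeb2, the most upstream of its starts), and capitals mark CAGGTG or CACCTG:
Epcam: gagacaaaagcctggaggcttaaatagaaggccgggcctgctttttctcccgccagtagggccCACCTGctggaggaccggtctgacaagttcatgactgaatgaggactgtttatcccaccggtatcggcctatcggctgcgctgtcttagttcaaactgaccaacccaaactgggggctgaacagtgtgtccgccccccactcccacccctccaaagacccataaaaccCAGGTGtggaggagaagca
Snai1: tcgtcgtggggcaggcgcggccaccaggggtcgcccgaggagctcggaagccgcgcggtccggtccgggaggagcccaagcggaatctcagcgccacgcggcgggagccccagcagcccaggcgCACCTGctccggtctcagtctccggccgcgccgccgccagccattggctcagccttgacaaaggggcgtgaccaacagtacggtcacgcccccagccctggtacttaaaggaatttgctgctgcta
Zeb2: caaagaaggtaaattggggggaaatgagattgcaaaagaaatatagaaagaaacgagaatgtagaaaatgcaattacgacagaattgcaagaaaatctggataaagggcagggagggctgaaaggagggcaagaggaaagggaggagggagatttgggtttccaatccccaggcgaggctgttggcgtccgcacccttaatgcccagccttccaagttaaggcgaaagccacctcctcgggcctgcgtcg

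The Epcam window held 2 such matches, starting 187 and 19 bases before the start, and the Snai1 window held 1, starting 126 bases before it. The Zeb2 window held none. Of all 32851 RefSeq windows of the same length, 17.2% held at least 1 match and 2.06% held 2 or more. CAGATG, which with CATCTG is another form of the general E-box CANNTG, was in none of the 3 windows and in 14.4% of all windows, while CANNTG itself was in 66.2%. The remaining 6 genes are Cdh1, Cdh2, Snai2, Zeb1, Grhl2 and Ovol1.

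Levels are given in CPM, reads of a gene over all reads on genes in units of 1000000, scaled with TMM factors over all 21 biological replicates. Values of single pools are CPM without TMM factors and are not on the same scale as those of replicates. Neurog3, the induced gene, had 1 to 2 reads in each GFP-only replicate and 89.6 to 206 CPM in the 6 Ngn3 replicates at 2 days, where WT Ngn3 averaged 133 CPM and 6S-A Ngn3 139 CPM. At 8 days it had 0 to 11 reads in the no-color replicates and 6.86 to 46.1 CPM in the Ngn3 replicates. Summed reads per replicate ranged from 17757303 to 26627347 at 2 days and from 2397470 to 17919627 at 8 days, so that 8-day values of low genes are the less precise. 1 of the 77 libraries, a WT Ngn3 pool of 8 days with 849278 reads, was left out. The 12 duct markers summed to between 9667 and 42239 CPM in every replicate, whereas the 11 fibroblast and stellate cell markers summed to between 0.246 and 5.18 CPM, with Pdgfra, Col3a1 and Thy1 at or below 3 reads in every replicate. The part of such cells in the mesenchymal transcripts was not tested beyond these levels.

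At 2 days, N-cadherin, vimentin, Snai2, Zeb1 and Zeb2 rose with both forms of Ngn3, and Epcam, Grhl2 and Ovol1 fell with both. E-cadherin replicates lay above their controls without passing the main test, and a model blocked on replicate number called them higher. With WT Ngn3, 5 of the 10 genes were higher and 3 lower than in GFP only (edgeR quasi-likelihood test over 23844 genes, Benjamini-Hochberg adjusted p under 0.05), where 6.56% of all genes tested were called higher and 5.23% lower. With 6S-A Ngn3, 6 were higher and 3 lower, where 9.43% of all genes were called higher and 8.62% lower. All 10 genes passed the detection filter at both times. Both comparisons share the 3 GFP-only replicates.

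**Figure D1:**
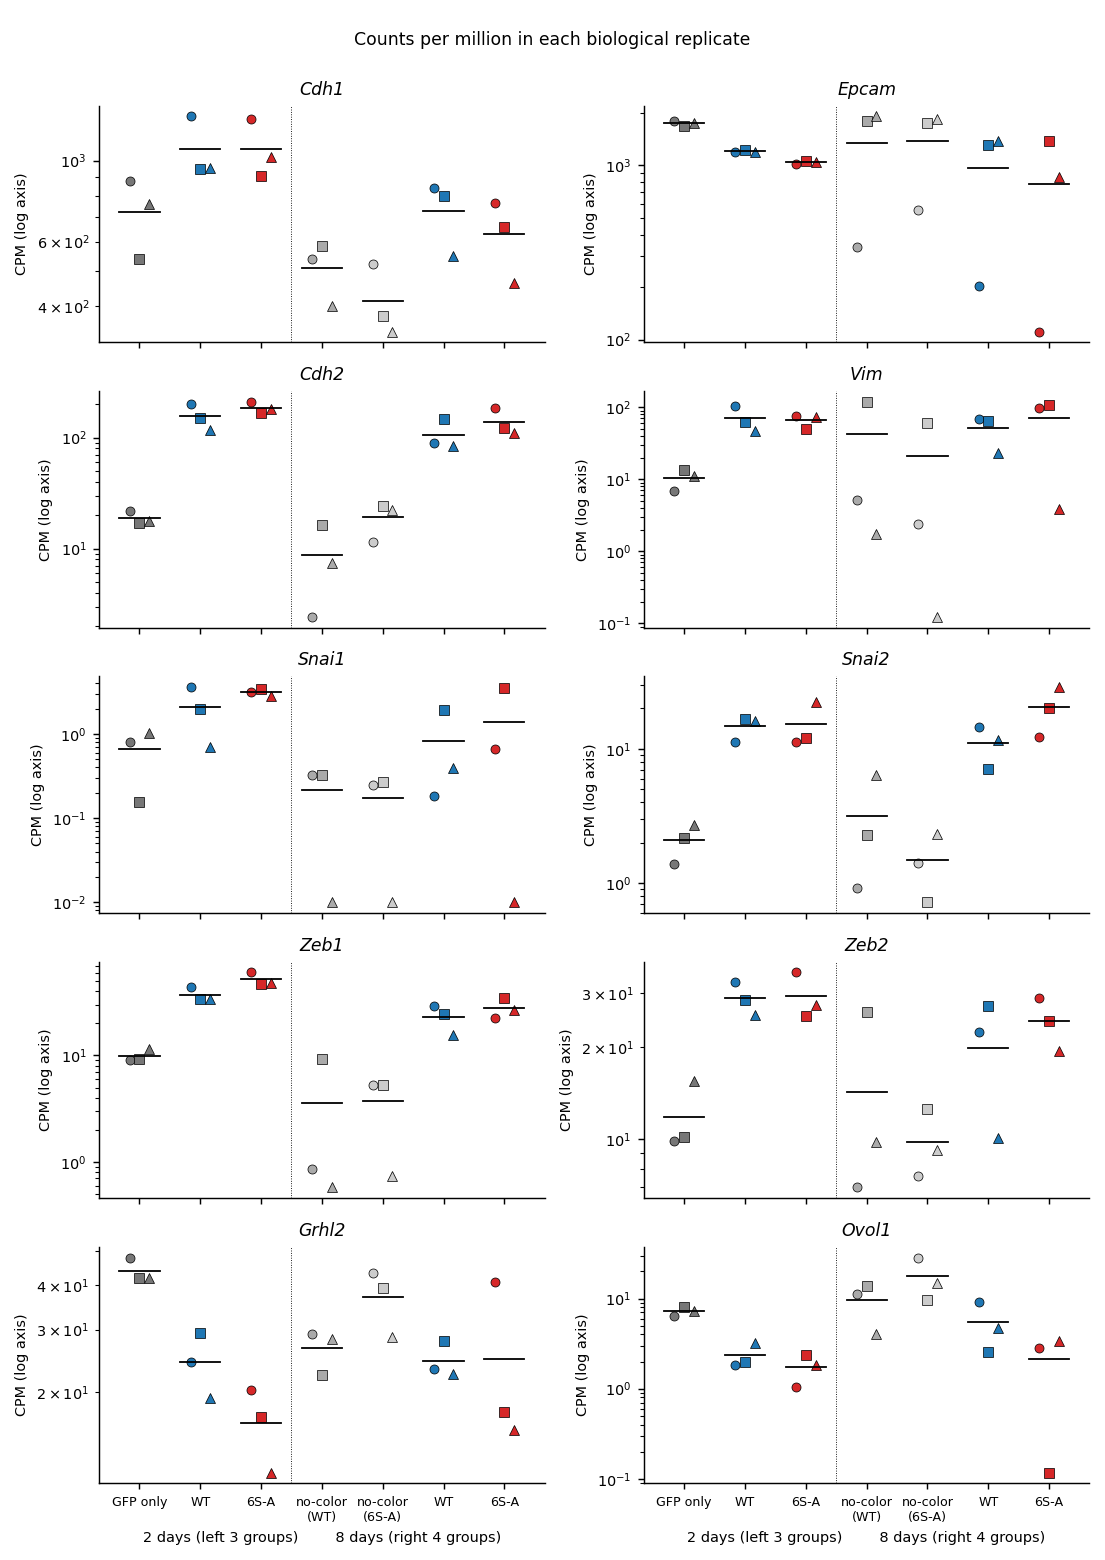
CPM (log axis) of each gene in each biological replicate (circle, square and triangle for replicates 1, 2 and 3) over the 3 groups of 2 days and the 4 groups of 8 days, with a bar at each group mean and 0 reads drawn at 0.01. Cdh2, Snai2 and Zeb1 lie above their controls in all Ngn3 replicates at both times, whereas Epcam splits replicate 1 from replicates 2 and 3 in all 4 groups of 8 days.

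Cdh1 (E-cadherin, chromosome 8) and Cdh2 (N-cadherin, chromosome 18) are the classical cadherins of epithelial and of neural or mesenchymal cells. Cdh1 measured 877, 536 and 760 CPM in GFP only, 1320, 947 and 954 CPM in WT Ngn3, and 1301, 907 and 1024 CPM in 6S-A Ngn3. Every Ngn3 replicate was above every GFP-only replicate, by 0.58 ± 0.19 (log2 fold change ± SE) for WT Ngn3 (adjusted p = 0.079) and 0.57 ± 0.19 for 6S-A Ngn3 (adjusted p = 0.060), neither past the threshold. DESeq2 on the same counts gave adjusted p = 0.040 and 0.030. An edgeR model blocked on replicate number gave 0.59 ± 0.09 (adjusted p = 0.00025) and 0.58 ± 0.09 (adjusted p = 0.00018), both called. A fall of Cdh1 lay outside both 95% intervals, 0.16 to 1.00 and 0.15 to 0.99.

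Cdh2 measured 21.7, 17.2 and 17.7 CPM in GFP only, 200, 151 and 118 CPM in WT Ngn3, and 211, 168 and 182 CPM in 6S-A Ngn3. It was 8.34-fold higher with WT Ngn3 (log2 fold change 3.06 ± 0.19, adjusted p = 2.23e-07) and 9.90-fold higher with 6S-A Ngn3 (3.31 ± 0.19, adjusted p = 7.71e-08). The groups lay far apart, with 118 CPM in the lowest Ngn3 replicate and 21.7 CPM in the highest GFP-only replicate. The separation held in single pools, with 9.44 to 34.4 CPM in the 18 GFP-only pools, 111 to 273 CPM in the 18 WT pools and 123 to 281 CPM in the 18 6S-A pools.

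Per kilobase of exon, Cdh1 was the more abundant cadherin in every replicate of every group. The ratio of Cdh1 to Cdh2 CPM per kilobase was 67.4 ± 10.9 (SD, n = 3) in GFP only, 12.3 ± 1.70 in WT Ngn3 and 10.1 ± 0.70 in 6S-A Ngn3. Cdh1, the numerator, was not lower in any Ngn3 replicate than in GFP only, and Cdh2 was higher in all of them.

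**Figure D2:**
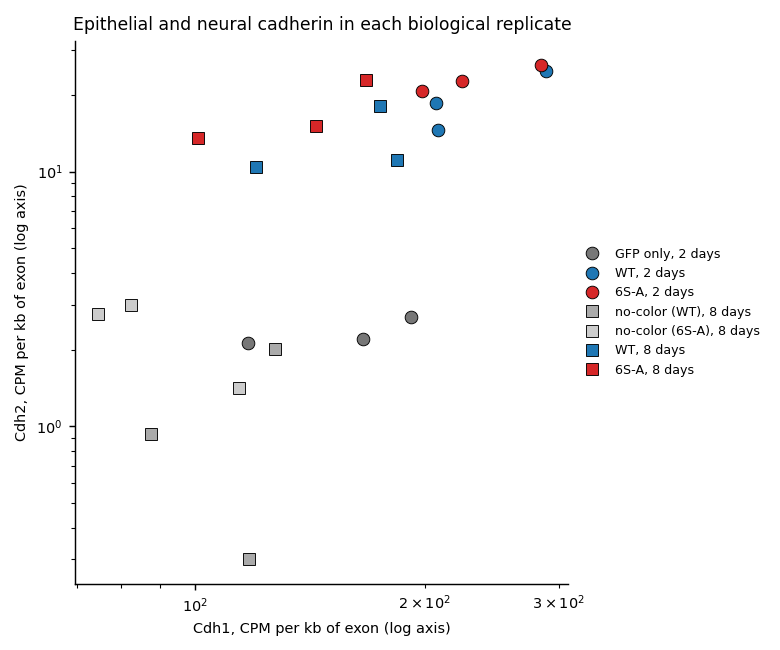
Cdh1 (horizontal) against Cdh2 (vertical), both in CPM per kilobase of exon on log axes, with 1 point for each biological replicate, circles for 2 days and squares for 8 days. The 12 Ngn3 replicates form the upper band, at Cdh1 to Cdh2 ratios of 7.30 to 16.5, and the 9 control replicates lie lower, at ratios of 27.0 to 391.

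Epcam (chromosome 17), the epithelial cell adhesion molecule, measured 1794, 1682 and 1736 CPM in GFP only, 1196, 1228 and 1184 CPM in WT Ngn3, and 1013, 1054 and 1045 CPM in 6S-A Ngn3. The 3 groups did not overlap. Epcam fell in WT Ngn3 (log2 fold change -0.52 ± 0.09, adjusted p = 0.0020) and in 6S-A Ngn3 (-0.74 ± 0.09, adjusted p = 6.69e-05). By group means per kilobase it was the most abundant of the 10 genes in every group, although in replicate 1 of both Ngn3 groups at 8 days Cdh1 was above it (184 against 92.8 CPM per kilobase in WT and 168 against 50.7 in 6S-A Ngn3). It stood at 473 to 792 CPM per kilobase in the group means at 2 days.

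Vim (chromosome 2), the intermediate filament of mesenchymal cells, measured 6.92, 13.3 and 11.2 CPM in GFP only, 104, 62.8 and 46.1 CPM in WT Ngn3, and 76.6, 50.5 and 72.4 CPM in 6S-A Ngn3. It was 6.83-fold higher with WT Ngn3 (2.77 ± 0.33, adjusted p = 0.0003) and 6.37-fold higher with 6S-A Ngn3 (2.67 ± 0.33, adjusted p = 0.0002). Single pools overlapped, with 2.18 to 46.5 CPM in GFP only, 23.7 to 150 CPM in WT Ngn3 and 15.7 to 133 CPM in 6S-A Ngn3.

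Of the Snail family repressors, Snai2 (Slug, chromosome 16) was the more abundant. It measured 1.39, 2.16 and 2.68 CPM in GFP only, 11.2, 16.8 and 16.2 CPM in WT Ngn3, and 11.3, 12.1 and 22.3 CPM in 6S-A Ngn3. The increase was 7.15-fold with WT Ngn3 (2.84 ± 0.33, adjusted p = 6.56e-05) and 7.35-fold with 6S-A Ngn3 (2.88 ± 0.33, adjusted p = 3.10e-05). Snai2 had more than 3 reads in 14 of the 18 GFP-only pools and in all 36 Ngn3 pools.

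Snai1 (chromosome 2), the other Snail gene, stayed low. It measured 0.81, 0.15 and 1.02 CPM in GFP only, 3.61, 1.99 and 0.69 CPM in WT Ngn3, and 3.12, 3.38 and 2.86 CPM in 6S-A Ngn3. The 6S-A replicates were all above GFP only (2.24 ± 0.63, adjusted p = 0.024), whereas WT replicate 3 overlapped the controls (1.69 ± 0.63, adjusted p = 0.11). Snai1 had more than 3 reads in 5 of 18 GFP-only pools, 11 of 18 WT pools and 16 of 18 6S-A pools. The 6S-A call was lost, at adjusted p of 0.053 to 0.076, when any of 4 replicates was left out: replicate 1 or 2 of 6S-A Ngn3, or replicate 1 or 2 of GFP only.

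Zeb1 (chromosome 18) and Zeb2 (chromosome 2) are the zinc-finger and homeobox repressors of epithelial genes. Zeb1 measured 9.08, 9.29 and 11.5 CPM in GFP only, 43.8, 34.1 and 34.3 CPM in WT Ngn3, and 60.5, 47.4 and 47.6 CPM in 6S-A Ngn3. It was 3.78-fold higher with WT Ngn3 (1.92 ± 0.17, adjusted p = 6.66e-06) and 5.20-fold higher with 6S-A Ngn3 (2.38 ± 0.17, adjusted p = 6.08e-07). The lowest 6S-A replicate was above the highest WT replicate.

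Zeb2 measured 9.88, 10.1 and 15.5 CPM in GFP only, 32.7, 28.6 and 25.5 CPM in WT Ngn3, and 35.2, 25.2 and 27.5 CPM in 6S-A Ngn3. The fold was 2.46 with WT Ngn3 (1.30 ± 0.21, adjusted p = 0.0008) and 2.47 with 6S-A Ngn3 (1.31 ± 0.21, adjusted p = 0.0005). With a single pool for each replicate, edgeR gave 0.66 ± 0.43 (adjusted p = 0.58) and 0.73 ± 0.44 (adjusted p = 0.43), neither called. Exons of Zeb1 and Zeb2 overlap antisense genes (Gm10125, and Zeb2os with Gm27761), and the strand setting of the counting is not stated, so their reads may include those of the partner or lose reads to it.

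Grhl2 (chromosome 15), a grainyhead-like factor of epithelial cells, measured 47.9, 41.9 and 42.1 CPM in GFP only, 24.2, 29.3 and 19.2 CPM in WT Ngn3, and 20.3, 17.0 and 11.8 CPM in 6S-A Ngn3. The fall was -0.85 ± 0.20 for the WT form (adjusted p = 0.011) and -1.43 ± 0.20 for the 6S-A form (adjusted p = 0.0002). All Ngn3 replicates were below all GFP-only replicates.

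Ovol1 (chromosome 19), an Ovo-like zinc-finger repressor known to oppose Zeb1, measured 6.44, 7.98 and 7.31 CPM in GFP only, 1.82, 1.99 and 3.2 CPM in WT Ngn3, and 1.05, 2.39 and 1.83 CPM in 6S-A Ngn3. It fell 3.07-fold with WT Ngn3 (-1.62 ± 0.35, adjusted p = 0.0073) and 4.13-fold with 6S-A Ngn3 (-2.05 ± 0.36, adjusted p = 0.0010). All Ngn3 replicates were below all GFP-only replicates, and the WT and 6S-A replicates overlapped. Grhl2 and Ovol1 share exon sequence with genes on the opposite strand (Gm16136, and AC126029.1 with Gm31166), under the same uncertainty as the Zeb genes. When a single pool stood for each replicate, 4 of the 10 genes were called for the WT form and 5 for the 6S-A form, among 1216 and 1677 genes called in all. Epcam, Zeb2 and Ovol1 lost their calls with both forms, Grhl2 with WT Ngn3 and Snai1 with 6S-A Ngn3.

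**Figure D3:**
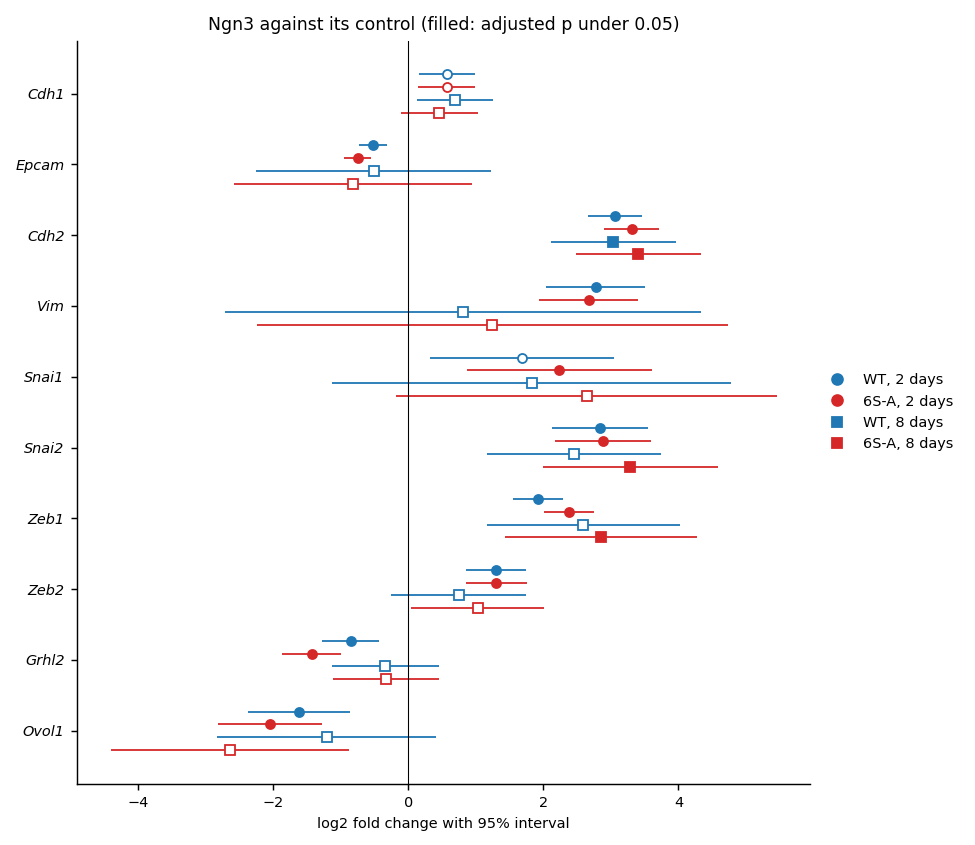
Log2 fold change of each gene (points) with its 95% interval (lines) in WT (blue) and 6S-A Ngn3 (red) against GFP only at 2 days (circles) and against no-color cells at 8 days (squares), filled where adjusted p was under 0.05. The circles of Cdh1 and of Snai1 in WT Ngn3 are open and all other circles are filled, whereas only Cdh2 in both forms and Snai2 and Zeb1 in 6S-A Ngn3 are filled at 8 days, and the 8-day Snai1 points rest on at most 30 reads per replicate.

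At 8 days, Cdh2 stayed higher with both forms of Ngn3 and Snai2 and Zeb1 were called higher with 6S-A Ngn3. With WT Ngn3, 1 of the 10 genes was called higher and 0 lower than in the mean of both no-color groups, where 0.741% of the 19696 genes tested were called higher and 0.173% lower. At an unadjusted p under 0.05 this comparison held 4 of the 10 genes and 2070 of the 19696. DESeq2 called 3 of the 10, and its count over all genes is given with the processing below. With 6S-A Ngn3, 3 of the 10 were called higher and 0 lower, where 1.37% of all genes were called higher and 0.34% lower. At an unadjusted p under 0.05 it held 5 of the 10 and 2378 of the 19696 genes. Both comparisons share the 6 no-color replicates. The no-color groups of WT and 6S-A organoids gave no call when compared with each other (edgeR, 0 genes past the threshold and 1649 at an unadjusted p under 0.05, of which 0 were among the 10; DESeq2 called 8 genes).

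Cdh2 measured 2.43, 16.2 and 7.48 CPM in no-color cells of WT organoids, 11.4, 24.2 and 22.2 CPM in no-color cells of 6S-A organoids, 89.7, 146 and 84.2 CPM in WT Ngn3, and 185, 122 and 109 CPM in 6S-A Ngn3. No Ngn3 replicate overlapped a no-color replicate. The fold was 8.21 with WT Ngn3 (3.04 ± 0.44, adjusted p = 0.0021) and 10.6 with 6S-A Ngn3 (3.41 ± 0.44, adjusted p = 0.0005), and the call held when each of the 12 replicates was left out in turn. The Cdh1 to Cdh2 ratio per kilobase was 183 ± 181 and 45.1 ± 30.9 in the no-color groups of WT and 6S-A organoids, 12.6 ± 3.56 in WT Ngn3 and 8.10 ± 1.25 in 6S-A Ngn3 (SD, n = 3 each).

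Snai2 measured 0.92, 2.29 and 6.33 CPM and 1.41, 0.72 and 2.33 CPM in the no-color groups of WT and 6S-A organoids, 14.6, 7.04 and 11.7 CPM in WT Ngn3, and 12.3, 20.1 and 28.9 CPM in 6S-A Ngn3. All Ngn3 replicates were above all no-color replicates. The difference was called with 6S-A Ngn3 (3.29 ± 0.61, adjusted p = 0.0079) and not with WT Ngn3 (2.45 ± 0.61, adjusted p = 0.075), where DESeq2 gave adjusted p = 0.0057 and a model blocked on replicate number (replicate block) 0.013. With replicate 2 of both no-color groups left out, the 6S-A difference was 2.99 and missed the threshold (adjusted p = 0.054).

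Zeb1 measured 0.85, 9.36 and 0.58 CPM and 5.27, 5.30 and 0.74 CPM in the no-color groups, 29.1, 24.3 and 15.6 CPM in WT Ngn3, and 22.4, 34.9 and 26.6 CPM in 6S-A Ngn3. Again no Ngn3 replicate overlapped a no-color replicate. The 6S-A difference was 2.85 ± 0.67 (adjusted p = 0.038) and the WT difference 2.59 ± 0.68 (adjusted p = 0.090), and both lay near the threshold. The 6S-A call was kept in 3 of the 12 fits that left out a replicate, with differences of 2.58 to 4.03 and adjusted p between 0.0031 and 0.12, and it was lost against the 6S-A organoids' own no-color group at a difference of 2.87 (adjusted p = 0.20). In passage 2 alone (replicates 1 and 2) it was 2.46 (adjusted p = 0.15). The WT difference was called by DESeq2 (adjusted p = 0.018) and with the replicate block (2.98, adjusted p = 0.0070), and with replicate 2 of both no-color groups left out it was 3.82 (adjusted p = 0.013).

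Vim at 8 days did not separate the groups. It measured 5.19, 119 and 1.73 CPM and 2.39, 59.9 and 0.12 CPM in the no-color groups of WT and 6S-A organoids, 69.6, 63.7 and 23.3 CPM in WT Ngn3, and 99.0, 109 and 3.84 CPM in 6S-A Ngn3. Replicate 2 was high in both no-color groups and replicate 3 was the lowest in all 4 groups. The differences of 0.81 ± 1.56 (WT Ngn3, adjusted p = 0.91) and 1.24 ± 1.54 (6S-A Ngn3, adjusted p = 0.85) were smaller than their errors. Under the replicate block they were 3.12 ± 1.26 (adjusted p = 0.33) and 2.56 ± 1.21 (adjusted p = 0.36), also not called. With no gene filter, edgeR called the 6S-A difference (adjusted p = 0.026). Vim was higher than in the same-numbered no-color replicate in 5 of 6 cases. Over all genes such counts of same-numbered replicates were not computed, here or for the genes below. With replicate 2 of both no-color groups left out, an alternative chosen after the values were seen, the differences were 4.44 ± 1.03 (adjusted p = 0.092) and 4.91 ± 1.05 (adjusted p = 0.054). With replicate 1 of all groups left out the WT difference was -0.02. The summed endocrine markers of replicate 3, 35.4 CPM in WT Ngn3 and 202 CPM in 6S-A Ngn3, were also lower than the 1057 to 5236 CPM of replicates 1 and 2, and their part in the Vim values was not tested.

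Epcam at 8 days followed the replicate number more than the group. It measured 340, 1788 and 1900 CPM and 554 (replicate 1), 1732 and 1845 CPM in the no-color groups, 204, 1299 and 1376 CPM in WT Ngn3, and 111, 1378 and 850 CPM in 6S-A Ngn3. Replicate 1 was the lowest of its group in all 4 groups, in each of its single pools. The differences of -0.51 ± 0.80 (WT Ngn3, adjusted p = 0.89) and -0.82 ± 0.81 (6S-A Ngn3, adjusted p = 0.79) did not pass the threshold in this fit, which holds no term for the replicate number. Set beside the no-color replicate of the same number from the same organoids, Epcam was lower in the Ngn3 cells in 6 of 6 cases, and replicate number 3 shares passage 5 over all 4 groups. Under the replicate block, the 6S-A difference was called (-1.12 ± 0.29, adjusted p = 0.039) and the WT difference was not (-0.67 ± 0.28, adjusted p = 0.29).

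**Figure D4:**
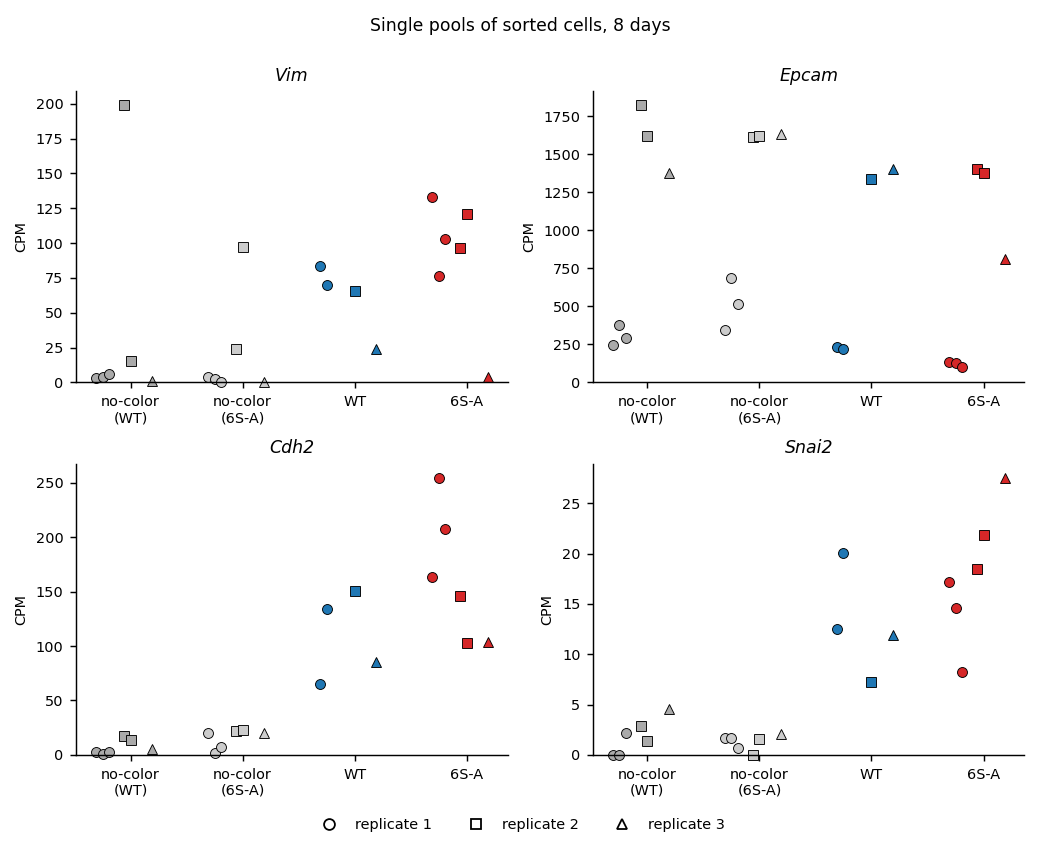
CPM of Vim, Epcam, Cdh2 and Snai2 (linear axes from 0, over the reads on genes of the pool, without TMM factors) in each single pool of 50 cells at 8 days, by group, with circles, squares and triangles for replicates 1, 2 and 3. The Vim values of 199 and 97.4 CPM each come from 1 of the 2 pools of a no-color replicate 2, and the pools of replicate 1 hold the low Epcam values, 104 to 690 CPM.

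The other genes gave no call at 8 days. Cdh1 measured 539, 583 and 401 CPM and 522, 376 and 341 CPM in the no-color groups of WT and 6S-A organoids, 841, 800 and 549 CPM in WT Ngn3, and 767, 658 and 462 CPM in 6S-A Ngn3. It overlapped, with differences of 0.69 ± 0.27 (adjusted p = 0.34) and 0.46 ± 0.27 (adjusted p = 0.54), so that no lower Cdh1 was seen at this time either. Against the same-numbered no-color replicate of the same organoids it was higher in 6 of 6 cases.

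Zeb2 group means were 14.3 ± 10.3 and 9.80 ± 2.55 CPM in the no-color groups, 19.9 ± 8.83 CPM in WT Ngn3 and 24.3 ± 4.70 CPM in 6S-A Ngn3 (SD, n = 3; edgeR adjusted p = 0.62 and 0.39). Grhl2 means were 26.6 ± 3.70 and 37.0 ± 7.67 CPM in no-color cells, 24.5 ± 2.90 CPM in WT Ngn3 and 24.7 ± 14.1 CPM in 6S-A Ngn3 (adjusted p = 0.82 and 0.83). Both genes overlapped between groups, and Zeb2 was above its same-numbered no-color replicate in 6 of 6 cases.

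Ovol1 measured 11.4, 13.6 and 4.03 CPM and 28.5, 9.62 and 14.9 CPM in the no-color groups, 9.26, 2.56 and 4.74 CPM in WT Ngn3, and 2.84, 0.12 and 3.38 CPM in 6S-A Ngn3. All 6S-A replicates were below all no-color replicates, with a difference of -2.64 ± 0.83 that missed the threshold (adjusted p = 0.15) and that DESeq2 (adjusted p = 0.0093) and the replicate block (-2.87, adjusted p = 0.046) placed past it. Snai1 had 0 to 5 reads in each no-color replicate, 2 to 6 in WT Ngn3 and 0 to 30 in 6S-A Ngn3, too few for a fold (adjusted p = 0.71 and 0.45).

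The 6S-A form and the WT form were compared directly. At 2 days none of the 10 genes was called, where 0.0126% of all genes, 3 of 23844, were called. At an unadjusted p under 0.05, 1380 genes and 3 of the 10 differed. These were Zeb1, higher in 6S-A Ngn3 by 0.46 ± 0.16 (95% interval 0.11 to 0.81, adjusted p = 0.67), Grhl2, lower by a log2 difference of -0.58 ± 0.20 (-1.01 to -0.15, adjusted p = 0.65), and Epcam, lower by -0.22 ± 0.09 (-0.42 to -0.02, adjusted p = 0.82). Zeb1 and Epcam replicates did not overlap between the forms and Grhl2 replicates did. For Cdh1 the interval of the difference was -0.42 to 0.41, for Cdh2 -0.12 to 0.61, for Vim -0.77 to 0.57, for Snai2 -0.60 to 0.68 and for Zeb2 -0.43 to 0.44. Those of Snai1 (-0.72 to 1.82) and Ovol1 (-1.20 to 0.35) were wider.

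At 8 days the direct comparison called none of the 10 genes and 0.0% of all genes, with 415 genes and 0 of the 10 at an unadjusted p under 0.05, and DESeq2 also called none of the 10. The intervals were wide. They ran from -0.71 to 1.46 for Cdh2, from -0.66 to 2.34 for Snai2, from -1.42 to 1.94 for Zeb1 and from -3.74 to 4.60 for Vim. Ovol1 had the largest fitted difference, -1.44 ± 0.87, and its replicates overlapped.

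**Figure D5:**
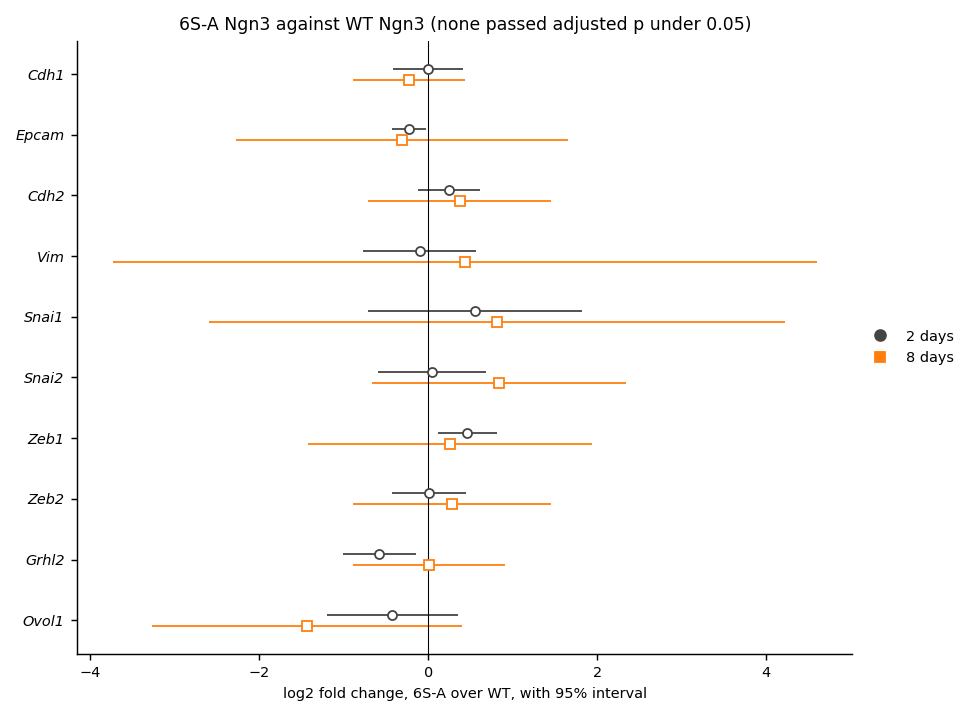
Log2 fold change of 6S-A over WT Ngn3 (points) with its 95% interval (lines) for each gene at 2 days (circles) and 8 days (squares), all open because none passed adjusted p under 0.05. The 2-day intervals of Zeb1, Grhl2 and Epcam leave out 0, and every 8-day interval includes it.

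Change between the time points was tested in a fit of all 7 groups over 24945 genes. The 6S-A against WT difference at 8 days minus that at 2 days gave no call among the 10 genes and 0.0% of all genes (750 genes and 0 of the 10 at an unadjusted p under 0.05). The mean Ngn3 effect at 8 days minus that at 2 days gave no call among the 10 and 0.0561% of all genes. The controls differ in kind, no-color cells at 8 days and GFP-positive cells at 2 days, and so this contrast compares differences against unlike controls. For Cdh2 the change was 0.05 ± 0.46 (95% interval -0.91 to 1.01) and for Snai2 0.08 ± 0.63 (-1.23 to 1.39). Grhl2 changed by 0.80 ± 0.38 (0.02 to 1.57, adjusted p = 0.76).

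Over all 7 groups, the order of mean levels set the 4 Ngn3 groups above the 3 control groups for Cdh2, Vim, Snai1, Snai2, Zeb1 and Zeb2. The share of all genes with this order, or with no overlap, was not computed. For Cdh2, Snai2 and Zeb1 the lowest Ngn3 group did not overlap the highest control group, whereas for Vim, Snai1 and Zeb2 every pair of neighbours in the order overlapped. Within the Ngn3 groups, neighbours in the order overlapped for Cdh2 and Snai2, and for Zeb1 only 6S-A and WT Ngn3 at 2 days did not. Cdh1 was ordered by time as well, from 1077 ± 202 CPM in 6S-A Ngn3 and 1073 ± 213 CPM in WT Ngn3 at 2 days to 413 ± 96.1 CPM in no-color cells of 6S-A organoids, and the WT Ngn3 groups of 2 and 8 days were its only neighbours that did not overlap. Over the 21 replicates, which share treatments and time points, log2 CPM of Cdh2 ran with that of Zeb1 (Pearson r = 0.88), Zeb2 (r = 0.84) and Snai2 (r = 0.83), whereas Epcam was near 0 with every other gene (r from -0.19 to 0.05). The Epcam values include replicate 1 of the 8-day groups, at 111 to 554 CPM. At 2 days, where Epcam fell with Ngn3 without overlap of the 3 groups, correlations were not computed separately.

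Among the 14624 genes with a mean of at least 1 CPM that were tested at both times, those most like each gene over the 21 replicates were Angptl4 for Cdh2 (r = 0.95), Tnip1 for Cdh1 (r = 0.96), Eif5 for Epcam (r = 0.96), Cd274 for Vim (r = 0.89), Coro2b for Snai1 (r = 0.88), Cbfa2t3 for Snai2 (r = 0.94), Mfap3l for Zeb1 (r = 0.96), Syn2 for Zeb2 (r = 0.90), Kifc3 for Grhl2 (r = 0.87) and Thsd4 for Ovol1 (r = 0.81). Cd55 was among the nearest 3 of both Cdh2 (r = 0.95) and Zeb2 (r = 0.88). These are descriptions over replicates that share groups.

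The wider families were read from lists of genes by function, whose counts at 2 days stand beside the 6.56% of all genes called higher and 5.23% called lower with WT Ngn3, and the 9.43% and 8.62% with 6S-A Ngn3. Of 14 cadherin genes tested at 2 days, 2 rose and 2 fell with each form of Ngn3, with a list median of 0.47 in WT and 0.43 in 6S-A Ngn3 against 0.01 and 0.02 over all genes. Cdh2 and Cdh13 rose. P-cadherin (Cdh3) fell from 70.3 ± 18 CPM in GFP only to 32.8 ± 1.1 CPM in WT and 20.4 ± 4.3 CPM in 6S-A Ngn3 (adjusted p = 0.0012 and 1.4e-05), and K-cadherin (Cdh6) from 172 ± 29 CPM to 67.2 ± 11 CPM and 38.8 ± 2.9 CPM (adjusted p = 3.4e-05 and 4.2e-07).

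Of 15 genes of adherens junctions, 5 rose and 5 fell with each form, with list medians of -0.01 and -0.24. Those that fell included the core catenins Ctnna1, Ctnnb1 and Ctnnd1, while plakoglobin (Jup), which also links desmosomal cadherins, rose from 405 ± 36 CPM to 736 ± 56 CPM in WT and 850 ± 110 CPM in 6S-A Ngn3. Nectin4, a cell adhesion protein of epithelia, fell from 41.2 ± 4.7 CPM to 19.0 ± 0.77 CPM and 12 ± 1.1 CPM. Of 10 desmosome genes, 2 rose and 3 fell with WT Ngn3 and 1 rose and 5 fell with 6S-A Ngn3 (medians -0.47 and -0.79). Desmoplakin (Dsp) rose by 1.28 ± 0.18 and 1.38 ± 0.18, while the plakin Ppl fell by 0.94 ± 0.23 and 1.26 ± 0.23 on the log2 scale.

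Of 8 EMT transcription factors tested, the Snail and Zeb genes included, 4 rose with WT and 5 with 6S-A Ngn3 and 0 fell, with list medians of 1.60 and 1.95 (1.40 and 1.95 with Prrx1, at 0 reads in GFP only, at its bound against 3 reads over the group). The member outside the Snail and Zeb families was the forkhead factor Foxc2, at 5.79 ± 2.0 CPM in GFP only and 16.4 ± 6.5 CPM in WT Ngn3 (adjusted p = 0.0060). Of 18 epithelial regulators, 1 rose (Spint1) and 8 fell with each form, with medians of -0.59 and -0.83. Besides Grhl2, Ovol1 and Epcam these included Elf3, Ehf, Klf5 and Rab25. The epithelial factor Elf3 fell from 101.5 ± 12 CPM in GFP only to 52.6 ± 4.4 CPM in WT Ngn3, and the Krüppel-like factor Klf5 from 172 ± 6.3 CPM to 61.9 ± 11 CPM in 6S-A Ngn3.

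Of 13 mesenchymal effectors, 7 rose and 1 fell with WT Ngn3 and 6 rose and 1 fell with 6S-A Ngn3, with medians of 0.74 and 1.24. With both forms those that rose include Vim and Cdh2, already described above. The matrix protein Sparc rose from 6.58 ± 2.4 CPM to 266 ± 133 CPM and 363 ± 100 CPM, and the gelatinase Mmp2 from 0.41 ± 0.42 CPM to 8.78 ± 0.84 CPM and 16.2 ± 4.4 CPM. Among 10 corepressor genes of the Snail and Zeb proteins, a list with 1 call in each direction and thus near the share over all genes, the demethylase Kdm1a rose by 0.76 ± 0.18 and 0.78 ± 0.18 and Ajuba fell by 0.78 ± 0.13 and 1.03 ± 0.13 on the log2 scale, and the other 8 were not called (list medians -0.05 and -0.07).

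At 8 days, where 0.741% of all genes were called higher with WT and 1.37% with 6S-A Ngn3, the called genes of these lists were as follows. Among 13 mesenchymal effectors 3 were higher with WT and 4 with 6S-A Ngn3, Cdh2 being 1 of them with each form. They included the collagen crosslinker Lox, at 0.73 ± 1.2 CPM in no-color cells against 6.58 ± 2.2 CPM and 10.6 ± 5.9 CPM, and the adhesion molecule Ncam1, at 13.0 ± 7.4 CPM against 54.9 ± 8.6 CPM in WT Ngn3. Cdh2 was the only one of 11 cadherins called, and of 15 adherens junction genes Ctnna3 and Nectin3 were called, with 6S-A Ngn3. None of the 10 desmosome or 10 corepressor genes was called with either form. The 8-day list medians in WT and 6S-A Ngn3, against 0.01 and 0.03 over all genes, were 0.04 and 0.22 for cadherins, 0.14 and 0.27 for adherens junctions, 0.46 and 0.28 for desmosomes, 0.75 and 1.89 for the 7 EMT factors tested, -0.47 and -0.73 for epithelial regulators, 0.80 and 1.24 for mesenchymal effectors, and 0.18 and 0.12 for corepressors.

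Markers of other cells moved with the groups as follows. At 2 days 11 of 12 endocrine markers rose in WT and 12 of 12 in 6S-A Ngn3, from sums of 1.20 to 3.01 CPM in GFP only to 259 to 1135 CPM in WT and 830 to 1749 CPM in 6S-A Ngn3. Of 12 duct markers 6 fell and 1 rose (Prom1) with each form, from sums of 16093 to 18221 CPM to 11009 to 11754 CPM and 9667 to 10153 CPM. At 8 days 5 of 12 endocrine markers were higher with WT and 7 with 6S-A Ngn3, with sums of 2.83 to 15.7 CPM in the no-color replicates, 35.4 to 4822 CPM in WT and 202 to 5236 CPM in 6S-A Ngn3. Of 12 duct markers Krt19 and Car2 were lower with both forms and Muc1 with 6S-A Ngn3, with sums of 16164 to 42239 CPM in no-color cells, 14467 to 17629 CPM in WT and 10372 to 26183 CPM in 6S-A Ngn3. The duct sums of both forms overlapped those of no-color cells. Replicates did not all rank alike in these sums and in Cdh2, Snai2 and Zeb1. In 6S-A Ngn3, replicate 3 had the lowest endocrine sum (202 CPM) and Cdh2 (109 CPM), the middle Zeb1 (26.6 CPM) and the highest Snai2 (28.9 CPM). None of the 8 fibroblast markers tested was called at 2 days, nor either of the 2 tested at 8 days. Of 5 immune markers tested, Cd74 and Csf1r fell with both forms at 2 days, with list sums of 16 to 23.6 CPM in GFP only and 8.32 to 12.7 CPM in the Ngn3 replicates. Of 6 endothelial markers Pecam1 rose with 6S-A Ngn3, and of 8 acinar markers Cela1 fell with WT Ngn3, with list sums up to 13.5 and 10.4 CPM at 2 days. The part of these markers in the levels of the 10 genes was not tested.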

How the data were processed

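RNA-seq libraries were prepared with Smart-seq2 from pools of 50 sorted cells, 77 libraries in 7 groups. The authors aligned reads to mm10 with GSNAP and deposited HTSeq (0.5.3p3) counts per gene, per the labels and the submitters' processing notes; the strand and multiple-mapping settings are not given in the sources used here. Rows that name no gene were left out, and over all reads they held 14.37% without a feature, 8.056% ambiguous and 22.52% not aligned. A library was kept if spike-ins took less than 30% of its reads, more than 1000000 reads fell on genes and more than 10000 genes were detected (76 of 77), and technical repeats were summed per biological replicate. Pools held 1501002 to 9202142 reads on genes.

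At each time, genes detected in at least 5 of the kept libraries entered a test by edgeR 4.0.16 (R 4.3.3; TMM, robust quasi-likelihood test, two-sided), all groups of a time point in one fit, with Benjamini-Hochberg adjustment over all genes tested and a threshold of 0.05. Change over time was tested in one fit of 7 groups. SE is the absolute log2 fold change over the square root of F. At 8 days the control was the mean of both no-color groups. Levels per kilobase used union exon lengths of the mm10 gene annotation. Correlations are Pearson's r of log2 CPM. The scripts were tested on simulated data.

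The 10 genes, the gene lists and the tests were chosen with earlier results of these data known. Besides the 10 genes and Neurog3, the genes named were, per list and comparison, at most the 3 with the largest change among those called, not overlapping and with a mean of at least 1 CPM, and the 3 genes most correlated with each of the 10. Other list genes were named after their values were seen, to account for counts. Alternatives were DESeq2 1.42.0, RLE factors, other gene filters, all libraries, a single repeat, the own no-color group, a replicate block and each replicate left out. Fits without replicate 2 of the no-color groups, without replicate 1 of 8 days, or of passage 2 alone at 8 days, were added after seeing the data. 1 gene of the epithelial regulator list is not reported here.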

Additional observations from a re-analysis of the deposited data

Results flagged for a closer look

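Single pools of the 8-day groups were examined for 1 value far from the rest by Dixon's test, over 40 combinations of gene and group, of which chance would give about 2.0 if pools were independent. Pools are technical repeats within 3 replicates, so this number is only a rough guide. 5 stood apart. Vim was 198.9 CPM in 1 pool of replicate 2 of the no-color cells of WT organoids, against 1.25 to 15.1 CPM in the other pools, and 97.36 CPM in 1 pool of replicate 2 of the no-color cells of 6S-A organoids, against 0.11 to 24.1 CPM. Snai1 was 6.397 CPM (29 reads) in 1 pool of replicate 2 of 6S-A Ngn3, against 0 to 1.49 CPM. Grhl2 was 40.34 CPM in 1 pool of replicate 1 of the no-color cells of WT organoids, against 15.4 to 23.7 CPM, and 91.32 CPM in 1 pool of replicate 1 of 6S-A Ngn3, against 6.84 to 30.2 CPM.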

How the results depend on the processing

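Over the log2 fold changes of the 10 genes, 1067 alternative values kept direction and side of the threshold, 27 lost a call, 25 gained one and 38 changed sign, of which all but 1 were in 6S-A against WT Ngn3. In the cases below the cause was not tested, apart from the fewer reads of the single-repeat fits.

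The count of genes called in WT Ngn3 against GFP only was 4291 with the replicate block and 1216 with a single repeat, and for 6S-A Ngn3 it was 1677 with a single repeat. In 6S-A against WT Ngn3 at 2 days it was 147 with the replicate block, 82 with DESeq2, 100 with no filter and 63 with a single repeat, and at 8 days 8 with no filter and 2 without replicate 1 of all groups. At 8 days the WT count was 472 with the block, 486 with DESeq2, 724 with no filter, 111 with a single repeat, 49 against the own no-color group and 61 without replicate 1. The 6S-A count was 704 with the block, 751 with DESeq2, 1044 with no filter, 115 against the own no-color group and 145 without replicate 1. Between the no-color groups DESeq2 called 8 genes and the fit with no filter 352, and the block gave 106 for the change of the Ngn3 effect.

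Of the 10 genes, a single repeat left 4 called with WT and 5 with 6S-A Ngn3 at 2 days, and 1 with 6S-A Ngn3 at 8 days. At 8 days 3 were called with WT Ngn3 under the block, DESeq2 or no filter, and 2 with all libraries or without replicate 2 of the no-color groups. With 6S-A Ngn3 5 were called under the block or no filter.

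With replicates left out in turn, genes called ranged from 1966 to 2815 (WT, 2 days), 3302 to 4502 (6S-A, 2 days), 67 to 231 (WT, 8 days), 192 to 349 (6S-A, 8 days), 0 to 5 and 0 to 2 (6S-A against WT at 2 and 8 days) and 0 to 71 (change of the Ngn3 effect). Of the 10 genes, 8 to 9, 8 to 10, 1 to 2 and 2 to 3 were called in the 4 comparisons with controls.

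The sign of the 6S-A against WT difference at 2 days changed for Cdh1 (0.00035 with RLE factors, 0.00036 with DESeq2, -0.17 to 0.17 with replicates left out), Vim (0.45 with a single repeat, -0.33 to 0.28), Snai2 (-0.0027 with the replicate block, -1.07 with a single repeat, -0.34 to 0.21) and Zeb2 (-0.0017 with the block, -0.15 to 0.11). At 8 days it changed for Cdh2 (-0.0095 without replicate 1), Vim (-0.56 with the block, -0.02 to 1.03), Snai1 (-0.018 with the block, -0.40 with a single repeat, -1.13 to 2.25), Zeb1 (-0.080 with all libraries), Zeb2 (-0.17 with all libraries, -0.17 with a single repeat, -0.042 to 0.55), Epcam (-1.03 to 0.20) and Grhl2 (-0.086 with the block, -0.025 with RLE factors, -0.020 with DESeq2, -0.057 with all libraries, -0.15 with a single repeat, -0.62 without replicate 1, -0.58 to 0.30). Vim in WT Ngn3 at 8 days was -0.022 without replicate 1.

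Replicates of different groups were correlated after each gene's group mean of log2 CPM was subtracted, so r describes deviations from the group and not the likeness of whole profiles. Same-numbered replicates correlated at 0.068 to 0.29 at 2 days and 0.089 to 0.53 at 8 days. Those of different number correlated at -0.25 to 0.02 and -0.35 to 0.12. Every replicate matched its own number best (9 of 9 and 12 of 12), a hint from the data. The labels tie the numbers only through replicate 3 of 8 days, at passage 5 in all groups, and since not every pair passed 0.1 the main tests hold no block. In passage 2 alone, 151 and 225 genes were called with WT and 6S-A Ngn3 at 8 days, and Zeb1 with 6S-A Ngn3 lost its call. Under the replicate block Cdh1 was called at 2 days (adjusted p = 0.00025 and 0.00018), Epcam with 6S-A Ngn3 at 8 days (-1.12 ± 0.29, adjusted p = 0.039), Ovol1 with 6S-A Ngn3 at 8 days (-2.87, adjusted p = 0.046), and Snai2 and Zeb1 with WT Ngn3 at 8 days (2.62 and 2.98, adjusted p = 0.013 and 0.0070). The default edgeR filter removed Snai1 at 8 days, where its 0 to 30 reads per replicate limit any comparison.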
